A study of Chlamydomonas reinhardtii with 34 samples.

Results

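Among the transcripts of the green alga Chlamydomonas reinhardtii, 96 loci rose at least 2-fold within 0.5 h of an acetate boost in both strains studied, and these are called shared risers here. They were chosen from 4 of the 34 libraries, as loci with a mean of at least 1 RPKM whose log2(RPKM + 1) was at least 1 higher at 0.5 h than at 0 h after the boost, both in CC-4349 and in sta6. RPKM is reads per kilobase of gene model, scaled to the reads of the library. The 96 were taken from 14513 loci over that mean, of 17301 gene models. A rise of this size was seen in 778 loci of CC-4349 and 243 of sta6, so the shared risers made up 12.3% of the first list and 39.5% of the second.

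Chlamydomonas takes up acetate as a carbon source, activates it to acetyl-CoA and uses it in respiration, in the glyoxylate cycle and in fatty acid synthesis. Without nitrogen the alga stops dividing, takes apart much of its photosynthetic and ribosomal machinery and stores carbon as starch and triacylglycerol. A transcript that changes within 0.5 h of a change of medium reports the balance of RNA synthesis and decay at that moment, and many early transcript changes in cells are short-lived. The deposited table and the reference used here pair the identifiers with no gene product. The shared risers are therefore named by identifier alone, and no role is given to any of them.

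CC-4349 and sta6 (CC-4348, a starchless mutant with a defect in the small subunit of ADP-glucose pyrophosphorylase) were grown in HSM medium in low light, washed and placed in the same medium without ammonium. No label records a return of nitrogen after the wash, so the boost libraries are also of cells without it. Each strain gave 1 library before the wash, 1 at each of 0, 0.5, 2, 4, 8, 12, 24 and 48 h without nitrogen, and 1 at each of the same 8 times after the acetate that followed 48 h of starvation. Time points of a phase stood in for replicates: replete cells (2 libraries per strain, pre-wash and 0 h), early starvation (0.5, 2 and 4 h, n = 3), late starvation (24 and 48 h, n = 2), the boost at 2 and 4 h (n = 2) and the late boost (8, 12, 24 and 48 h, n = 4). A p-value therefore measures the spread between time points, and the labels do not say that successive samples came from separate cultures. The sample titles do not say whether the medium before the boost held acetate. No starved culture was followed past 48 h without the boost. The boost and the passage of time therefore cannot be told apart.

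Read totals recovered from the values were 5.72 to 53.9 M per library in sta6 and 10.7 to 24.1 M in CC-4349. The locus used to check the strain labels, Cre03.g188250.t1.1, stayed at or below 7.45 RPKM in sta6 and at or above 100 RPKM in CC-4349. In 4 libraries fewer loci reached 1 RPKM than in the other 30: both at 0.5 h after the boost (CC-4349 13046, sta6 13026) and both at 0 h without nitrogen (13093 and 12858), against at least 13488 elsewhere. These 4 libraries include those with the highest median of the shared risers in each strain, described next. The library of sta6 at 0.5 h without nitrogen, with the next highest median of that strain, held 13698, and sta6 at 0.5 h after the boost had a median (12.2 RPKM) below that of its pre-wash library (23.9 RPKM). The part of this difference between libraries in the levels was not tested.

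The rise that chose the loci was larger in CC-4349. The median level of the 96 went in CC-4349 from 7.37 to 43.4 RPKM and in sta6 from 4.25 to 12.2 RPKM. The median rise was 2.19 in CC-4349 and 1.18 in sta6 on the log2(RPKM + 1) scale, and 87 of 96 rose more in CC-4349. The rise was at least 2 on that scale for 56 of them in CC-4349 and for 3 in sta6. Fold changes counted here and below are on that scale, on which a difference of 1 is called 2-fold. Among all 14513 loci, 5.36% rose and 17.1% fell at least 2-fold over the same step in CC-4349, and 1.67% rose and 5.91% fell in sta6. These values selected the loci and were not tested.

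**Figure D1:**
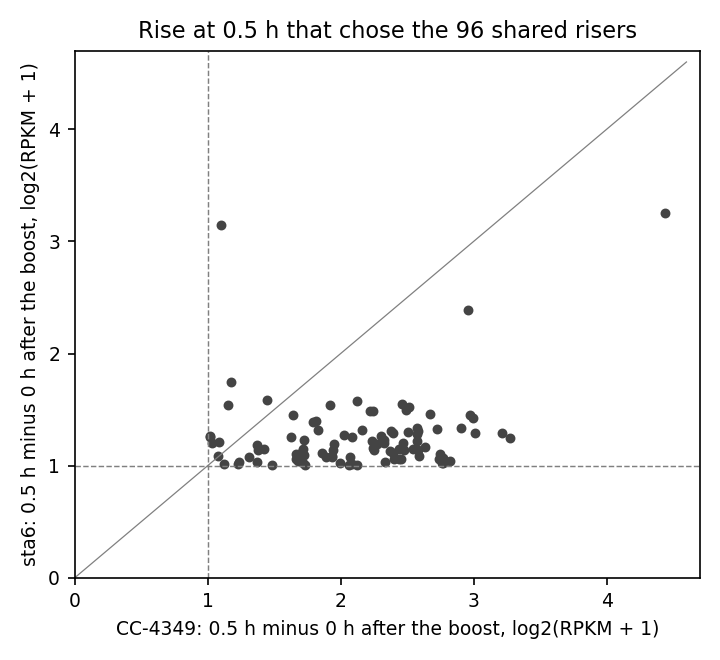
Rise of each of the 96 shared risers from 0 to 0.5 h after the boost, CC-4349 on the x axis and sta6 on the y axis, both as a difference of log2(RPKM + 1) between 2 single libraries. Dashed lines mark the threshold of 1 that chose the loci, and most points lie below the diagonal, where the rise in CC-4349 is the larger.

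Of the 96, 35 lay just above the threshold, with a smaller rise under 1.1, and 2 had a smaller rise of at least 2. The largest was that of Cre01.g053150.t1.1, which went in CC-4349 from 1.75 to 58.6 RPKM and in sta6 from 12.5 to 128 RPKM. Cre12.g552300.t1.1 followed, from 2.55 to 26.6 RPKM and from 3.11 to 20.5 RPKM. The next were Cre10.g450350.t1.1 (5.0 to 32.1 RPKM in CC-4349, 1.75 to 7.07 RPKM in sta6), Cre01.g047950.t1.1 (8.99 to 42.5 and 2.93 to 10.7 RPKM) and Cre13.g602400.t1.1 (6.74 to 28.3 and 2.57 to 9.38 RPKM). In these last loci the level reached in CC-4349 was well above that reached in sta6, whereas Cre01.g053150.t1.1 reached the higher level in sta6. Just inside the threshold lay Cre12.g508100.t1.2, with rises of 1.73 in CC-4349 and 1.00 in sta6, and Cre17.g735600.t1.1, with 2.12 and 1.01. Just outside lay Cre07.g338450.t1.2, with 0.999925 in CC-4349 and 1.35 in sta6, and Cre05.g238700.t1.2, with 0.999757 and 1.1.

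The 96 were on the whole well measured. Their mean over the 30 libraries that the choice did not use had a median of 17.2 RPKM and ranged from 2.14 to 1341 RPKM, against a median of 8.35 RPKM for all loci tested. The gene models had a median length of 2352 bases in the 95 whose length could be recovered, against 2324.5 bases for all. In 84 of the 95, at least 20 reads lay behind the value in every library. Short models give few reads, and Cre17.g737900.t1.1, with a model of 81 bases, held 3 to 92 reads. The identifiers were spread over the genome's numbering, with 15 of 96 (15.6%) carrying the number 12 against 9.83% of all loci tested. Of the 80 found in the reference gene table, none was the immediate neighbour of another.

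Outside the 0.5 h boost library, the shared risers were high early in the experiment and low late in starvation. Their median in CC-4349 was 25.1 RPKM before the wash and 31 RPKM at 0 h, fell to 14.3 RPKM at 0.5 h, returned to 25.7 RPKM at 4 h and then declined to 10.2 RPKM at 48 h. In sta6 the median was 23.9 RPKM before the wash, 48.4 RPKM at 0 h, 34.4 RPKM at 0.5 h and 13.5 RPKM at 2 h. It recovered to 25.3 RPKM at 8 h before a drop to 7.72 RPKM at 24 h and 6.01 RPKM at 48 h. Over the same libraries the median of all loci tested stayed between 6.12 and 8.71 RPKM, as the plot of levels by library shows.

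**Figure D2:**
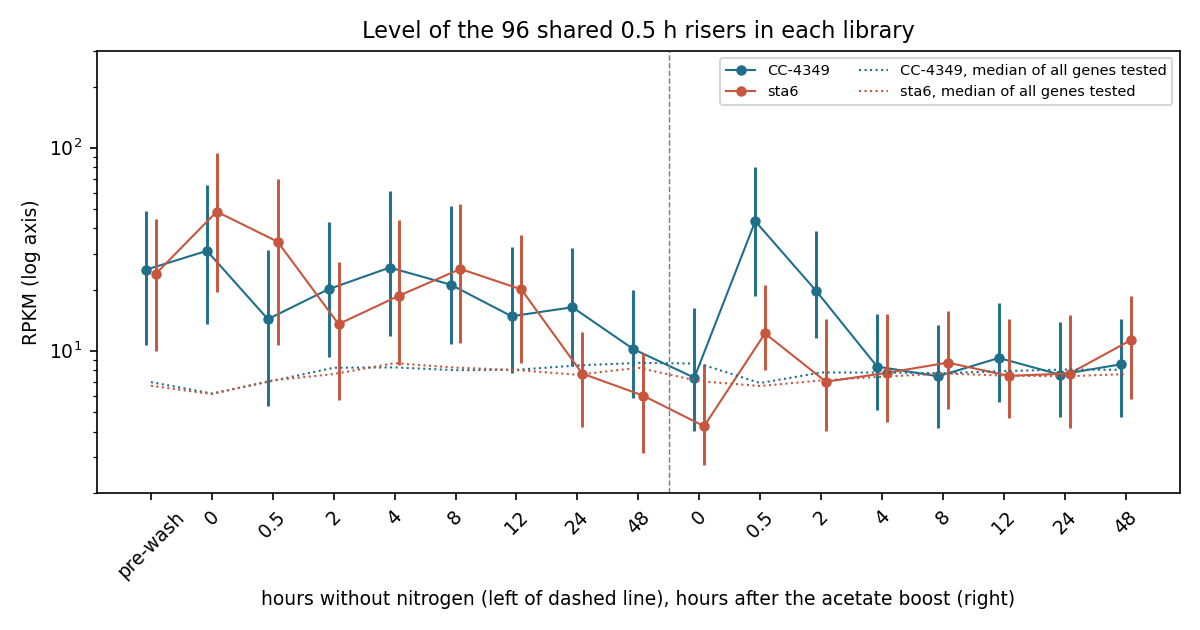
Level of the 96 shared risers in each of the 34 libraries, in RPKM on a log axis, with time on the x axis (hours without nitrogen, then hours after the boost). Points are medians over loci, bars run from the lower to the upper quartile over loci, and dotted lines are the median of all 14513 loci tested. The median of CC-4349 is highest 0.5 h into the boost (43.4 RPKM) and that of sta6 at 0 h without nitrogen (48.4 RPKM).

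The library that held the peak of most of these loci differed between the 2 strains. In CC-4349, 62 of the 96 had the highest of their 17 values at 0.5 h after the boost and 16 at 0 h without nitrogen. In sta6, 13 had it at 0.5 h after the boost and 62 at 0 h without nitrogen. In CC-4349 the level at 0.5 h after the boost exceeded the pre-wash level for 78 loci, and in sta6 it did so for 24. The boost libraries took part in the choice of the loci, so these counts are a description. For none of them is the share among all loci given here, so effects on whole libraries cannot be told apart from these peaks. The sta6 library at 0 h without nitrogen held the fewest loci at 1 RPKM or more (12858).

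The comparison of late starvation with replete cells asked how the shared risers behave on nitrogen removal, in libraries that the choice did not use. In limma's fit, 73 of 96 fell, 5 rose and 18 did not pass the test (a change of 2-fold or more at an adjusted p under 0.05). Of all loci tested, 10.9% fell and 18.7% rose. The median change of the shared risers was -1.56 on the log2(RPKM + 1) scale, against 0.29 for all loci. Of the 682 loci that rose after the boost in CC-4349 alone, 305 (44.7%) fell in starvation, and of the 147 that rose in sta6 alone, 45 (30.6%) fell. The late starvation libraries are the samples just before the 0 h boost library, whose low values helped to choose the loci, so a low late starvation level is not independent of the choice.

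**Figure D3:**
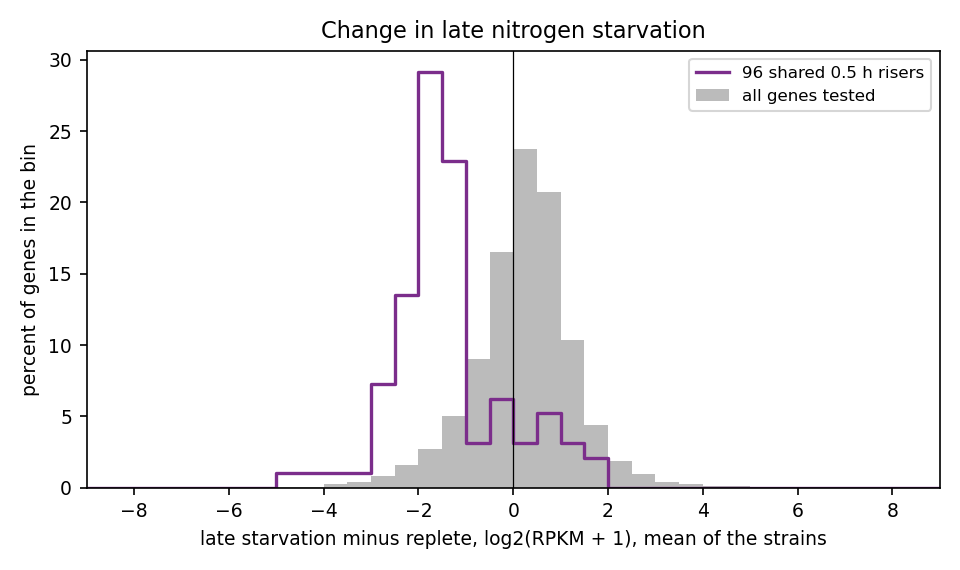
Distribution of the change from replete to late starvation on the log2(RPKM + 1) scale, averaged over the strains, as the percent of loci in bins 0.5 wide. Grey bars are all 14513 loci tested, with a median of 0.29, and the line is the 96 shared risers, with a median of -1.56.

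Cre16.g686750.t1.1 fell furthest. In CC-4349 it held 125 and 85.5 RPKM in the replete libraries and 4.85 and 2.56 RPKM at 24 and 48 h, and in sta6 it held 166 and 216 RPKM and then 5.20 and 2.23 RPKM. The groups did not overlap in either strain, and the change was -4.96 on the log2 scale (SE 0.40, adjusted p = 1.64e-09 by limma). Cre07.g349200.t1.1 held 586 and 708 RPKM in CC-4349 when replete and 20.7 and 15.4 RPKM in late starvation, with 877 and 857 RPKM and then 69.8 and 90.6 RPKM in sta6. Its change was -4.26 (SE 0.61, adjusted p = 3.57e-06 by limma), again with no overlap. Cre12.g549550.t1.1, among the most abundant of the 96, held 1801 and 1757 RPKM in replete CC-4349 and 319 and 353 RPKM in late starvation, with 1067 and 2265 RPKM and then 60.5 and 39.8 RPKM in sta6. Its change was -3.68 (SE 0.34, adjusted p = 1.03e-08 by limma).

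Among the loci with the largest rise at 0.5 h after the boost, Cre10.g450350.t1.1 fell in late starvation by 2.88 on the log2 scale, Cre01.g047950.t1.1 by 2.14 and Cre13.g602400.t1.1 by 1.06, with a highest limma adjusted p of 0.000974 among them. The call of Cre13.g602400.t1.1 was lost with a pseudocount of 5 (-0.72) and without both 0 h libraries (-0.93). It was also lost without CC-4349 at 48 h (-0.80) or sta6 at 0 h (-0.88), and its groups overlapped in CC-4349. Cre01.g053150.t1.1 (0.20) and Cre12.g552300.t1.1 (-0.08) did not pass the test. The most abundant locus, Cre06.g282800.t1.1, held 3077 and 2407 RPKM in replete CC-4349 and 917 and 344 RPKM in late starvation. In sta6 it held 2579 and 1435 RPKM and then 1118 and 556 RPKM, and its change was -1.78 (SE 0.39, adjusted p = 0.000419 by limma). Cre01.g057800.t1.1, another abundant locus, changed by -1.80 (SE 0.43, adjusted p = 0.000914 by limma). Cre05.g238710.t1.1, another of the 6 most abundant, held 96.8 and 71.6 RPKM in replete CC-4349 and 127 and 40.8 RPKM in late starvation, and its change of -0.48 did not pass the test.

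The 5 that rose in late starvation did so before the boost. Cre04.g221450.t1.1 held 1.56 and 1.37 RPKM in replete CC-4349 and 3.14 and 4.57 RPKM in late starvation, and in sta6 it held 0.439 and 0.121 RPKM and then 4.30 and 8.30 RPKM. Its change was 1.71 (SE 0.19, adjusted p = 1.18e-07 by limma), and few reads lay behind its lowest values, the smallest being 1 read. Cre08.g365850.t1.1 rose by 1.65 (SE 0.33) and Cre17.g705250.t1.2 by 1.48 (SE 0.17). The others were Cre05.g235950.t1.1 and Cre13.g586650.t1.2. With a pseudocount of 5 in place of 1 in the log, none of the 5 kept a 2-fold change, and 7.90% of all loci rose.

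The scale of the table bears on these counts. With median-of-ratios scaling the median change of all loci moved by -0.26, from 0.29 to 0.02, and 15.4% of loci fell and 12.7% rose. The shared risers then numbered 75 that fell and 4 that rose, and their median lay 1.90 below that of all loci, against 1.85 below it as deposited. The 0 h libraries are among the 4 with few detected loci. Without both of them, and so against the pre-wash libraries alone, 57 fell. The share of all loci that fell in that setting is not given here, so the 57 stand without their background.

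The median fall was larger in sta6. The median change in late starvation was -2.12 in sta6 and -0.94 in CC-4349, against 0.26 and 0.30 for all loci. In each strain 83 of the 96 had a negative change, for which the share among all loci is not given here. Late starvation lay below replete with no overlap for 75 loci in sta6, 70 in CC-4349 and 63 in both, against 25.7%, 23.1% and 17.6% of all loci tested. The median difference between the strains' changes (sta6 minus CC-4349) was -1.16 for the shared risers and -0.07 for all loci. Tested locus by locus, this difference passed for 3 of the 96, against 2.23% of all loci. Cre12.g549550.t1.1 fell more in sta6 (difference -2.55, SE 0.68, adjusted p = 0.0454 by limma). Cre04.g221450.t1.1 rose more in sta6 (1.5, SE 0.38, adjusted p = 0.0332 by limma), and the third was Cre04.g214200.t1.2 (1.43, SE 0.37, adjusted p = 0.0385 by limma). An unadjusted p under 0.05 was reached by 39 of the 96 and by 2031 of the 14513.

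The steps between successive libraries show when the level fell. In sta6 the largest drop came between 12 and 24 h, where 63 of 96 fell at least 2-fold against 7.7% of all loci. An earlier drop, between 0.5 and 2 h, took 59 down against 9.63%. In CC-4349, 43 fell between 0 and 0.5 h, against 7.2%, and 20 fell between 24 and 48 h, against 1.16%. From 12 to 24 h only 4 fell in CC-4349, against 2.2%. These steps compare single libraries and were not tested. The sta6 library at 2 h is the shallowest, at 5.72 M reads.

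The strains were far apart at some times and close at others. At 0.5 h without nitrogen the shared risers were higher in sta6 by a median of 1.08 on the log2 scale, and 52 were at least 2-fold higher, against 8.43% of all loci. At 24 h without nitrogen the median difference (sta6 minus CC-4349) was -1.07 on that scale, and 54 were at least 2-fold lower, against 6.77%. Before the wash 5 were at least 2-fold lower and 1 higher, against 4.52% and 5.03%, with a median difference of -0.16. Thus the strains had nearly the same level of these loci before nitrogen was removed, and single-library differences of opposite sign appeared afterwards.

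The wash itself, a change of medium before the boost, was followed by a rise of many shared risers in sta6. From pre-wash to 0 h without nitrogen, 48 of 96 rose at least 2-fold in sta6 and 4 fell, against 6.76% and 4.95% of all loci. The median change was 1.00 on the log2 scale, where that of all loci was -0.22. In CC-4349, 4 rose and 1 fell, against 3.06% and 2.9%, with a median change of 0.28. With median-of-ratios scaling the rises of CC-4349 numbered 13, against 4.91% of all loci. The 4 that rose in CC-4349 also rose in sta6, where 1.34% of all loci rose in both. The sta6 library at 0 h held the fewest loci at 1 RPKM or more (12858), and the part of this in the rise was not tested.

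**Figure D4:**
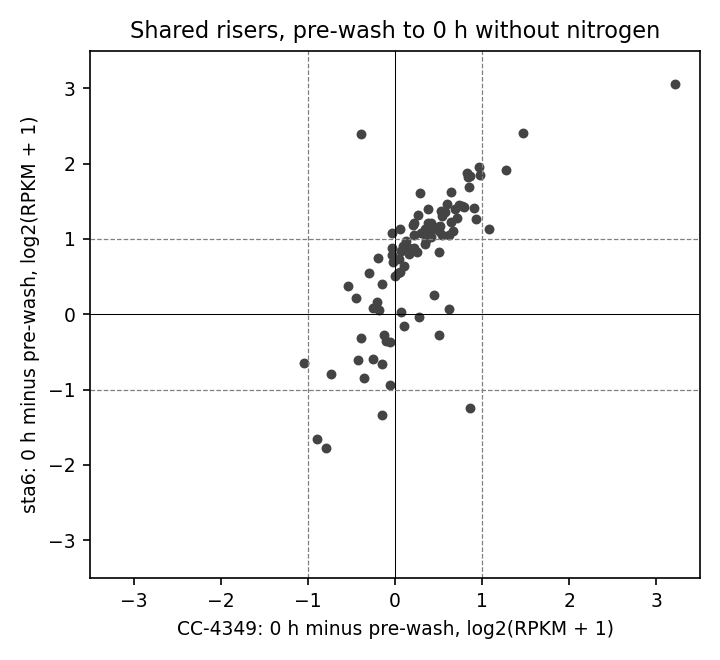
Change of each of the 96 shared risers from pre-wash to 0 h without nitrogen, CC-4349 on the x axis and sta6 on the y axis, as a difference of log2(RPKM + 1) between 2 single libraries. Dashed lines mark 2-fold changes, and 48 points lie at or above the upper line in sta6 while 4 lie at or right of the line in CC-4349.

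The largest rises at the wash, by the mean over the strains, were those of Cre02.g136800.t1.1, Cre12.g496100.t1.1 and Cre03.g171900.t1.2. In CC-4349 and sta6 in turn, Cre02.g136800.t1.1 went from 3.37 to 39.7 and from 1.72 to 21.7 RPKM, Cre12.g496100.t1.1 from 8.47 to 25.2 and from 10.9 to 62.1 RPKM, and Cre03.g171900.t1.2 from 44.2 to 109 and from 39.9 to 153 RPKM. At 0.5 h without nitrogen, in CC-4349 and sta6, Cre02.g136800.t1.1 was at 12.6 and 1.43 RPKM, Cre12.g496100.t1.1 at 3.03 and 16.1 RPKM and Cre03.g171900.t1.2 at 24 and 50.7 RPKM, each below its 0 h level but in 3 of the 6 cases still above its pre-wash level. At the other end, Cre17.g737900.t1.1 went from 24.6 to 13.7 and from 20.7 to 5.32 RPKM in the same order, with few reads behind the values of this short model. Cre02.g097100.t1.1 went from 29.4 to 15.4 and from 24.7 to 7.18 RPKM, and Cre01.g018000.t1.1 from 24.6 to 11.4 and from 11.7 to 7.11 RPKM. A locus that rose after the boost in both strains could thus move in either direction at the wash.

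Early starvation against replete cells gave few calls. Of the 96, 11 fell and 2 rose, against 4.73% and 7.37% of all loci. The median change was -0.57, against 0.23 for all loci. Of the loci that rose after the boost in CC-4349 alone 87 of 682 (12.8%) fell, close to the share in the shared risers, and of those that rose in sta6 alone 59 of 147 (40.1%). Cre07.g349200.t1.1 fell most, by 2.42 on the log2 scale (SE 0.56, adjusted p = 0.00148 by limma), from the replete values above to 528, 93.0 and 176 RPKM at 0.5, 2 and 4 h in CC-4349 and to 474, 31.6 and 53.7 RPKM in sta6. Cre01.g057800.t1.1 fell by 1.69 and Cre06.g282800.t1.1 by 1.44. In sta6 the latter was at 169 RPKM at 2 h, its lowest of all libraries.

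The 2 that rose in early starvation were Cre12.g553350.t1.2 and Cre02.g077750.t1.1. Cre12.g553350.t1.2 held 11.3 and 10.8 RPKM in replete CC-4349 and 16.7, 108 and 101 RPKM at 0.5, 2 and 4 h, with 15.1 and 11.5 and then 18.8, 148 and 224 RPKM in sta6. Its change was 2.45 (SE 0.58, adjusted p = 0.00199 by limma), and its model spans 103 bases. Cre02.g077750.t1.1 rose by 1.38 (SE 0.43, adjusted p = 0.0112 by limma), and in CC-4349 it climbed to 472 RPKM at 8 h. The count of 11 falls was unstable. It was 31 with median-of-ratios scaling, against 7.61% of all loci, 5 with a pseudocount of 5 (2.63%) and 7 without both 0 h libraries (4.28%). With the matched time point as a replicate block it was 4 of 96, near the 3.98% of all loci. It was 32 without the sta6 pre-wash library (5.74%) and 5 without the sta6 library at 0 h (4.53%).

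After the boost the shared risers declined between 2 and 4 h in CC-4349 and changed little between those times in sta6. In CC-4349 the median was 19.7 RPKM at 2 h and 8.36 RPKM at 4 h, and 50 of 96 fell at least 2-fold over this step, against 1.96% of all loci. In sta6 the median was 7.04 RPKM at 2 h and 7.78 RPKM at 4 h, and 1 locus fell, against 0.186%. The libraries at 0 and 0.5 h chose the loci for a low and a high value, so a fall after 0.5 h is in part built in. Their medians were 7.37 and 43.4 RPKM in CC-4349 and 4.25 and 12.2 RPKM in sta6. From 4 to 48 h the median stayed between 7.49 and 9.21 RPKM in CC-4349 and between 7.52 and 11.3 RPKM in sta6. At 2 h the median difference between the strains (sta6 minus CC-4349) was -1.47 on the log2 scale, and 65 loci were at least 2-fold lower, against 6.94%. By 4 h 6 were, against 3.6%.

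Set against late starvation, the libraries at 2 and 4 h after the boost gave 5 loci that rose and none that fell, with 91 that did not pass limma's test. Of all loci, 0.165% rose and 0.338% fell, which is 24 and 49 loci. The loci were chosen for a high value at 0.5 h, the sample just before 2 h. Rises at 2 and 4 h are therefore not independent of the choice. The median change of the shared risers was -0.0034, against -0.11 for all. At an unadjusted p under 0.05 limma listed 2095 of all loci, and voom on recovered reads also called none of the shared risers down. The late starvation libraries also serve the comparison with replete cells and the late boost, so the 3 comparisons share samples.

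The late boost, from 8 to 48 h, gave 6 loci that rose and 1 that fell, against 0.303% and 0.227% of all loci. The median change was -0.25, against -0.08 for all loci, and 72 of the 96 changes were negative. The share of negative changes among all loci is not given here. In CC-4349 at 8 h, 31 of 96 were at least 2-fold below their late starvation mean, against 2.69% of all loci. In sta6, 2 were, against 1.05%.

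Cre01.g053150.t1.1, Cre17.g705700.t1.1, Cre12.g552300.t1.1 and Cre02.g097100.t1.1 were called up in both comparisons, which share the late starvation libraries. Cre01.g053150.t1.1 rose most. In CC-4349 it held 6.17 and 1.83 RPKM in late starvation, 43.2 and 29.5 RPKM at 2 and 4 h, and 29.6, 29.6, 15.2 and 22.6 RPKM from 8 to 48 h. In sta6 it held 1.01 and 1.56 RPKM, then 143 and 200 RPKM, then 163, 156, 247 and 278 RPKM. The groups did not overlap in either strain, CC-4349 declined after its peak of 58.6 RPKM at 0.5 h, and sta6 had its highest value at 48 h. The change was 4.63 at 2 and 4 h (SE 0.34, adjusted p = 8.29e-08 by limma) and 4.47 in the late boost (SE 0.30, adjusted p = 9.64e-09 by limma). The late change was larger in sta6 by 4.05 (SE 0.60, adjusted p = 0.0112 by limma), the only such difference among the 96 where 0.0482% of all loci passed. In sta6 this locus was already at 12.5 RPKM in the library at 0 h after the boost, against 1.56 RPKM at 48 h without nitrogen.

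Cre17.g705700.t1.1 had a different history. It fell in starvation. In CC-4349 the replete libraries held 22.8 and 20.4 RPKM and the late ones 5.02 and 2.19 RPKM, and in sta6 they held 17.3 and 6.23 RPKM and then 2.19 and 1.1 RPKM (change -2.26, SE 0.32, adjusted p = 3.63e-06 by limma). After the boost it stood at 10.6 to 16.2 RPKM from 2 to 48 h in CC-4349, below its replete level, and at 27.1 to 37.4 RPKM in sta6, above it. The change was 2.65 at 2 and 4 h (SE 0.32, adjusted p = 0.000157 by limma) and 2.66 in the late boost (SE 0.28, adjusted p = 1.35e-05 by limma). The larger change in sta6 did not pass the test of the difference (1.96 in the late boost, adjusted p = 0.275 by limma).

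Cre12.g552300.t1.1 held 6.28 and 2.61 RPKM in late starvation of CC-4349 and 3.30 and 2.50 RPKM in sta6. It held 13.4 and 13.5 RPKM at 2 and 4 h in CC-4349 and 20.4 and 19.4 RPKM in sta6, and from 8 to 48 h it lay between 13.1 and 21.9 RPKM for CC-4349 and between 16 and 21.1 RPKM in sta6. The strains overlapped in the late boost, and the changes were 1.96 (SE 0.28, adjusted p = 0.00123 by limma) and 2.03 (SE 0.24, adjusted p = 5.9e-05 by limma). Cre02.g097100.t1.1 rose by 1.23 (SE 0.27, adjusted p = 0.0195 by limma) and 1.21 (SE 0.23, adjusted p = 0.00705 by limma), and the groups did not overlap. In CC-4349 it held 23.4 and 21.3 RPKM in late starvation and 51.0 to 72.8 RPKM from 2 to 48 h, and in sta6 35.7 and 30.3 RPKM and then 64.9 to 77.7 RPKM. With the matched time point as a replicate block both calls were lost (adjusted p = 0.199 and 0.0937 by limma). The call at 2 and 4 h was also lost without the 48 h starvation library or the 2 h boost library of either strain (adjusted p between 0.106 and 0.115 by limma).

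The remaining calls were made in 1 comparison each. Cre06.g294250.t1.1 was called at 2 and 4 h (1.79, SE 0.32, adjusted p = 0.00575 by limma): in CC-4349 it was at 12.1 RPKM at 2 h and back at 0.794 RPKM at 48 h. Cre08.g365850.t1.1 (1.95, SE 0.28, adjusted p = 0.000638 by limma) and Cre05.g235950.t1.1 (1.73, SE 0.30, adjusted p = 0.00286 by limma) rose in the late boost. In CC-4349 Cre05.g235950.t1.1 climbed from 6.62 RPKM at 0.5 h to 32.1 RPKM at 48 h, whereas in sta6 it was at 50.9 RPKM at 0.5 h and at 11.3 RPKM at 48 h. Whether these loci differ between the comparisons was not tested. With the replicate block, 3 of the 5 rises at 2 and 4 h passed, those of Cre01.g053150.t1.1, Cre12.g552300.t1.1 and Cre17.g705700.t1.1. In the late boost 4 of the 6 passed, which were these and Cre08.g365850.t1.1.

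Cre16.g686750.t1.1 alone fell in the late boost, to 1.86, 1.44, 0.400 and 0.219 RPKM at 8, 12, 24 and 48 h in CC-4349 and to 0.554, 0.129, 0.272 and 0.426 RPKM in sta6 (change -1.52, SE 0.34, adjusted p = 0.0203 by limma). This call was lost with a pseudocount of 5, with the replicate block, and without either late starvation library of CC-4349 or the 24 h one of sta6.

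**Figure D5:**
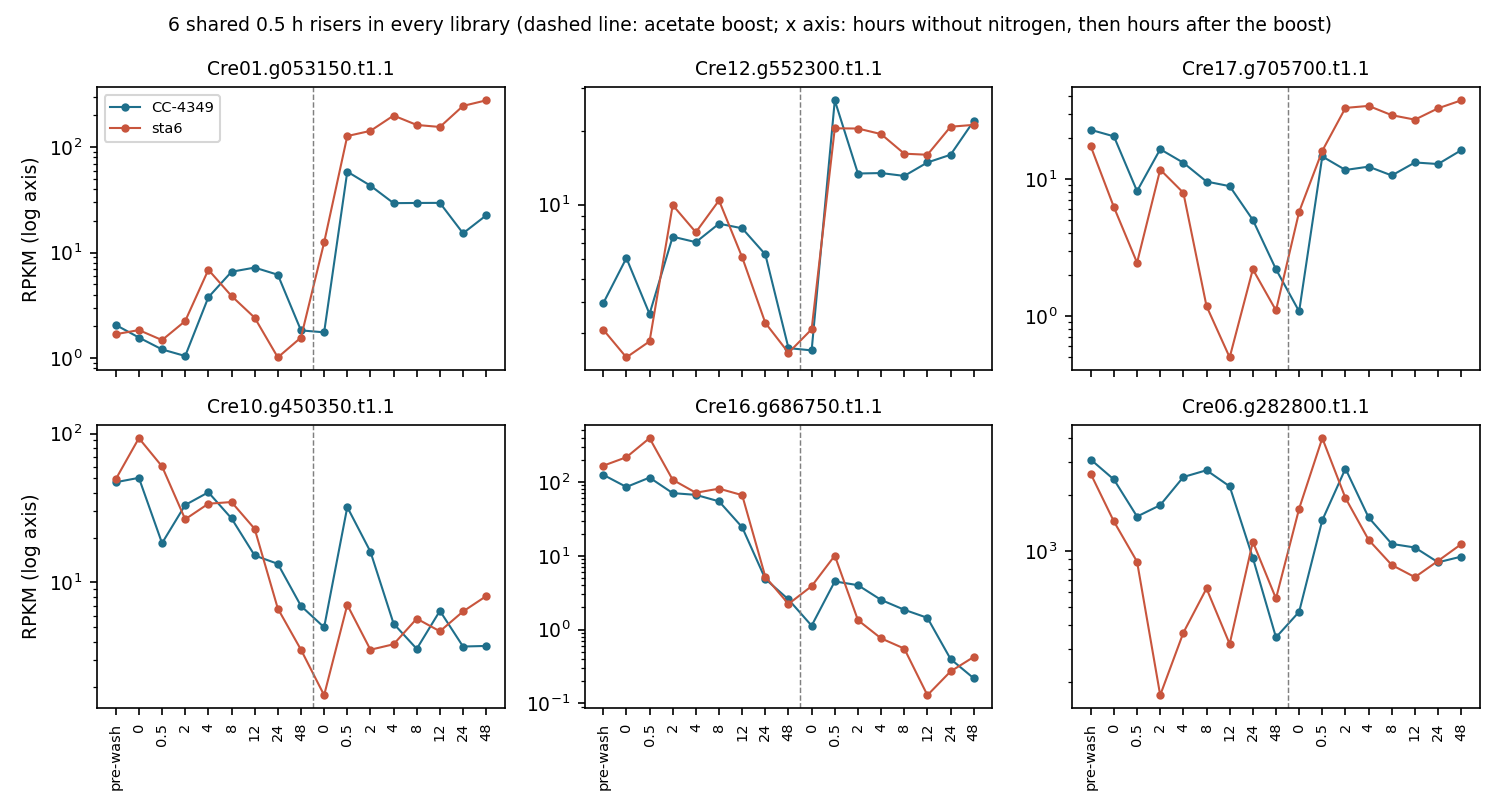
RPKM (log axis) of 6 shared risers in each of the 34 libraries, by time on the x axis, with a point per library and the boost as a dashed line. The upper row shows loci that stayed high from 2 to 48 h after the boost, with Cre01.g053150.t1.1 at 278 RPKM for sta6 and at 22.6 RPKM for CC-4349 at 48 h. In the lower row, Cre16.g686750.t1.1 and Cre06.g282800.t1.1 were lower at 48 h than at 0.5 h after the boost in both strains, whereas Cre10.g450350.t1.1 went from 32.1 RPKM at 0.5 h to 5.29 RPKM at 4 h in CC-4349 but in sta6 from 7.07 RPKM to 3.54 RPKM at 2 h and 8.10 RPKM at 48 h.

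From 2 to 48 h after the boost, 5 of the 96 lay above each of their 9 libraries before it in both strains, against 0.531% of all loci. The high value at 0.5 h that chose the loci comes just before 2 h, so this count is not independent of the choice. The 5 were Cre01.g053150.t1.1, Cre02.g097100.t1.1, Cre08.g365850.t1.1, Cre12.g552300.t1.1 and Cre17.g705250.t1.2. The last of these held 12.8 and 11.6 RPKM in late starvation of CC-4349 and 19.6 to 27.1 RPKM from 2 to 48 h, and in sta6 9.83 and 6.48 RPKM and then 12.0 to 15.1 RPKM. In CC-4349 Cre10.g450350.t1.1 was at 5.29 RPKM at 4 h and between 3.58 and 6.45 RPKM from 8 to 48 h, near the 5.0 RPKM at 0 h. In sta6 it was at 3.54 RPKM at 2 h and between 4.7 and 8.10 RPKM from 8 to 48 h, above the 1.75 RPKM at 0 h. The difference between the strains in the change from late starvation to the late boost, taken as sta6 minus CC-4349, did not pass the test (1.29, adjusted p = 0.7 by limma).

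The strains were compared over the 15 time points that the choice did not use, with the time point as a block. Of the 96, 4 were higher and 3 lower in sta6, against 2.83% and 2.92% of all loci, and the median difference was -0.22. The share of shared risers that differed was thus near that of all loci. Cre17.g735600.t1.1 differed most. Over the 15 time points its lowest, median and highest values were 9.22, 32.7 and 50.1 RPKM in sta6 and 0.777, 1.91 and 3.21 RPKM in CC-4349, so the strains did not overlap. The mean of sta6 was 30.3 ± 10.6 RPKM, that of CC-4349 1.92 ± 0.638 RPKM (SD, n = 15 each), and the difference was 3.36 on the log2 scale (SE 0.13, adjusted p = 1.14e-12 by limma).

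Cre08.g365850.t1.1 averaged 30.03 ± 32.5 RPKM in sta6 against 3.81 ± 4.11 RPKM (SD, n = 15 each), and sta6 was the higher at 14 of 15 time points (1.96, SE 0.30, adjusted p = 5.34e-05 by limma). After the boost it went from 62.9 RPKM at 0.5 h to 43.4 RPKM at 2 h in sta6 and from 6.66 to 3.02 RPKM in CC-4349, and then climbed to 94.7 RPKM in the last library of sta6 and 13.9 RPKM in that of CC-4349. Cre02.g125000.t1.1 was 8.90 ± 7.56 and 0.854 ± 0.398 RPKM (SD, n = 15 each), which is 1.83 higher in sta6 (SE 0.37, adjusted p = 0.000767 by limma). Cre07.g349200.t1.1 was likewise higher, sta6 exceeding CC-4349 at 12 of 15 time points (1.63, SE 0.45, adjusted p = 0.00736 by limma). Its replete levels were 877 and 857 RPKM in sta6 and 586 and 708 RPKM in CC-4349. In late starvation and from 2 to 48 h after the boost sta6 held 33.4 to 163 RPKM where CC-4349 held 2.13 to 20.7 RPKM.

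Lower in sta6 were Cre13.g586650.t1.2, at 10.1 ± 4.25 against 32.8 ± 11.2 RPKM (SD, n = 15 each; -1.59, SE 0.17, adjusted p = 9.27e-07 by limma), Cre02.g077750.t1.1, at 81.7 ± 41.8 against 228 ± 146 RPKM (-1.38, SE 0.21, adjusted p = 4.63e-05 by limma), and Cre05.g232600.t1.2, at 29.0 ± 32.4 against 43.5 ± 34 RPKM (-1.01, SE 0.16, adjusted p = 6.32e-05 by limma). The first 2 were lower at 14 of 15 time points and the last at 13 of 15. The spread of these means includes the changes over time, which the block removes from the test. Cre05.g232600.t1.2 lay at the 2-fold line. Its call was lost with a pseudocount of 5 (-0.77), with median-of-ratios scaling (-0.97) and without the block (adjusted p = 0.193 by limma). With a library left out its difference ranged from -1.11 to -0.96, so the call was also lost without some single libraries.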

How the data were processed

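RNA from 34 libraries was sequenced, 17 of each strain. The deposited table gives RPKM per gene model and library. The unit is not named in it and was inferred from the values. Alignment used Bowtie, per the submitters' processing notes. The genome build, annotation, counting rule, strand setting and aligner version were not given in the sources used here. Hence reads of near-identical or overlapping genes cannot be told apart. Whole reads (tolerance 0.05 reads) were recovered in 16785 of 17301 gene models and gave the read totals. On 8 simulated libraries, 16118 of 16214 genes came back with equal reads. Precision follows these totals, and counts of reads cover counting error only.

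Values were analysed as log2(RPKM + 1), which understates changes of low loci, for 14513 loci with a mean of at least 1 RPKM. With limma 3.58.1 (R 4.3.3, moderated variances with a trend, Benjamini-Hochberg adjustment over all loci), models were fitted to the 30 libraries that the choice of loci did not use, as 12 groups of strain and phase (18 residual degrees of freedom), and for the strain difference as 15 matched time points with 14. A call needs 2-fold or more and an adjusted p under 0.05. Matched time points of the strains are paired by design as the same time of the same treatment, and they deviated together (consensus correlation 0.542). The main fits of the phases left this pairing out. Their changes averaged over the strains treat paired libraries as independent, so the p-values of these changes can be too small. Counts with the pairing as a replicate block are given as an alternative. On simulated data with 14513 genes, limma recovered 93 of 100 genes changed by 1.5 on the log2 scale in late starvation, 94 in early starvation, 91 at 2 and 4 h after the boost, 93 in the late boost and 99 in the strain difference, with at most 7 false calls. Successive time points are dependent, which the simulation does not cover. Read counts were also tested with limma's voom, an alternative chosen after seeing the data.

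The loci, lists and comparisons were chosen with earlier results of these data known. Named loci are the 5 with the largest smaller rise at 0.5 h, the 6 most abundant, the 3 largest called rises and falls of each comparison, the 2 nearest the threshold on each side, and the 3 largest and 3 smallest changes at the wash. Cre04.g214200.t1.2, Cre05.g235950.t1.1, Cre06.g294250.t1.1 were named after their values were seen, since they complete short counts. The reference, assembly Chlamydomonas_reinhardtii_v5.5, matched 12666 of 17301 identifiers (73.2%) and gave no product, so the 12 product lists and the promoter motifs were not run.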

Additional observations from a re-analysis of the deposited data

Results flagged for a closer look

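In 3 shared risers the change from replete to late starvation differed between the strains in limma's test of the difference, and 2 of them are among the loci named by rule: Cre12.g549550.t1.1 (sta6 minus CC-4349, -2.55 on the log2 scale) and Cre04.g221450.t1.1 (1.5). In 1, Cre01.g053150.t1.1, the change from late starvation to the late boost differed, by 4.05.

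A single library stood apart from the other 3 of the late boost in 4 groups of 56 tested, and chance alone sets apart about 1 group in 20. In CC-4349 the library at 12 h was high for Cre03.g171900.t1.2 (31.7 RPKM, the others between 15.3 and 17.8 RPKM) and for Cre10.g450350.t1.1 (6.45 RPKM, the others between 3.58 and 3.75 RPKM). In sta6 the library at 48 h was high for Cre12.g496100.t1.1 (5.94 RPKM, the others between 3.54 and 3.82 RPKM) and for Cre17.g735600.t1.1 (41.1 RPKM, the others between 33.9 and 35.1 RPKM).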

How the results depend on the processing

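The number of shared risers depends on the scale: 216 with a pseudocount of 0.1, 17 with a pseudocount of 5, 178 with median-of-ratios scaling (all 96 among them) and 6 with a threshold of 1.5. With median-of-ratios scaling, 13 rose at the wash in CC-4349 instead of 4 (4.91% and 3.06% of all loci). In late starvation the 73 falls stayed between 63 and 76 when a library was left out and the 5 rises between 4 and 6. The shares of all loci over these ranges are not given here. The rises were 0 with a pseudocount of 5 (7.90% of all loci) and 3 with quantile normalization (12.4%). In early starvation the 11 falls were 31 with median-of-ratios scaling (7.61% of all loci), 5 with a pseudocount of 5 (2.63%), 7 without both 0 h libraries (4.28%) and 5 to 32 with a library left out, and the 2 rises were 2 to 4. The boost at 2 and 4 h gave 3 to 10 rises with a library left out. Without sta6 at 24 h without nitrogen the count was 10 (0.338% of all loci). It was 8 without sta6 at 0.5 h (0.214%) and 3 without sta6 at 48 h (0.0345%). The late boost gave 6 to 7 rises and 0 to 1 falls, and the fall was 0 with a pseudocount of 5 (0.0551% of all loci). The strain difference gave 4 to 5 loci higher and 2 to 5 lower. For the ranges of the early rises, the late boost and the strain difference the shares of all loci are not given here. Without both 0 h libraries Cre02.g136800.t1.1 changed sign, to 0.27 in late and 0.35 in early starvation, neither passing the test. The causes of these changes were not tested.

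With the matched time point as a replicate block, the falls numbered 72 in late starvation. In early starvation 4 of 96 fell, near the 3.98% of all loci that fell. At 2 and 4 h after the boost 3 rose, against 0.0413% of all loci. In the late boost 4 rose, and the fall was lost (0, against 0.0758% of all loci). The shares of all loci beside the 72 falls and the 4 late rises are not given here. Without the block, the strain difference gave 3 higher and 2 lower, and the shares of all loci beside these are not given here either. Low read counts limit Cre04.g221450.t1.1, with 1 read in its lowest library, and the models of 81 and 103 bases.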
